A study of Mus musculus with 2 samples.

Results

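Glucose enters a muscle fibre through carrier proteins, is trapped there by hexokinase, and enters faster when insulin or contraction moves stored carriers to the surface. The 10 genes described here cover these steps. They are the carrier genes Slc2a1, Slc2a3, Slc2a4 and Slc2a12, the hexokinase genes Hk1 and Hk2, the Rab-GAP genes Tbc1d1 and Tbc1d4, and the insulin signalling genes Irs1 and Akt2. They were chosen by name, with earlier results of these data known, and array probes were assigned to them through RefSeq accessions. All 10 had at least 1 probe, with 18 probes in all, out of 23458 genes with a matched probe.

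The samples were a slow and a fast pool of single muscle fibres, each hybridised to 1 of 2 one-colour mouse arrays. Both pools came from 8 male mice aged 6 to 8 weeks, all GFP-Myh7 heterozygous (G/+), so that fibres making slow myosin glow green. The slow pool held 1659 GFP-positive fibres and, by its source label and the treatment protocol, came from the soleus, although its tissue label names the extensor digitorum longus (EDL). The fast pool was made of 4447 fibres without GFP, taken from the EDL, and does not separate type IIA, IIX and IIB fibres. Muscle of origin and fibre type differ together and cannot be told apart, and each group is 1 pool of animals with no replicate.

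In the rodent and human muscle fibre, Slc2a4 encodes GLUT4, the carrier that rests in vesicles inside the cell until insulin or contraction sends it to the surface. Irs1 relays the signal of the insulin receptor to a lipid kinase, and Akt2 is the kinase below it that phosphorylates the Rab-GAPs TBC1D4 (also called AS160) and TBC1D1. A Rab-GAP switches Rab proteins off and so holds GLUT4 vesicles back, and phosphorylation lifts this brake. TBC1D1 is also a target of the energy-sensing kinase AMPK in contracting muscle.

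The upstream stretches of the paralogues Tbc1d1 and Tbc1d4 are printed because these genes differed most among the 10, in opposite directions. Each is the 250 bases before a start site in RefSeq (GRCm38.p6), read 5′ to 3′ on the gene's strand, and Tbc1d1 has 2 such sites. Capitals mark E-boxes (CANNTG), the kind of site bound by myogenic factors such as MyoD.
Tbc1d1, chr5:64160010-64160259, plus strand: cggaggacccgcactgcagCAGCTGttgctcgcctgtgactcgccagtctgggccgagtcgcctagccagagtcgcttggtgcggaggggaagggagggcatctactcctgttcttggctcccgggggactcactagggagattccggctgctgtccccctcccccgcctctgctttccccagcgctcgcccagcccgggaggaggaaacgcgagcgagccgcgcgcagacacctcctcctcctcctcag
Tbc1d1, chr5:64230107-64230356, plus strand: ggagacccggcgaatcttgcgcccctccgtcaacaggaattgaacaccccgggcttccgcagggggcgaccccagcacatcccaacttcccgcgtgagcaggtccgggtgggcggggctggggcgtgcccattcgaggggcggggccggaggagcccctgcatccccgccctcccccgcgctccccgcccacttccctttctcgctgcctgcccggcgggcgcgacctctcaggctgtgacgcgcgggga
Tbc1d4, chr14:101609192-101609441, minus strand: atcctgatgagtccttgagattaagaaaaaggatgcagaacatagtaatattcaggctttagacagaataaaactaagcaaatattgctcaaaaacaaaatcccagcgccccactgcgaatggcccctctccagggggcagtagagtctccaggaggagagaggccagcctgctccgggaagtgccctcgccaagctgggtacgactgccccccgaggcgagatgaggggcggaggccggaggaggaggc
The first Tbc1d1 stretch held 1 E-box, at positions -231 to -226 from the start site, and the other 2 stretches held 0. An E-box was found on either strand in 66.2% of 32841 such stretches of all genes. The MEF2 motif (CTA, any 4 bases, TAG), the MEF3 motif TCAGGTT and the nuclear receptor half-site AGGTCA had no match in the 3 stretches, against 3.20%, 3.49% and 14.03% of all stretches. The NFAT core GGAAA had 2 matches in the first Tbc1d1 stretch and 0 in the others, against 55.6% of stretches with a match. Guanine and cytosine made up 54.8% of the Tbc1d4 stretch, and 68.4% and 73.6% of the Tbc1d1 stretches. Such matches describe letters only. RefSeq windows were found for 8 of the 10 genes, and Slc2a3 and Slc2a4 had none in the table used.

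A level is the log2 of the processed signal from which the array's 75th percentile has been taken off, so a level of 0 stands at that percentile, and every difference is slow minus fast. Levels of different probes are not comparable. A gene is represented by its brightest probe, and one whose probe was well above background on 1 array only gets a bound. There were no replicates, so no gene was tested between the pools and a size of 2-fold serves as the call. The scanner software's error of a difference had a median of 0.20 log2 over genes measured on both arrays, and repeatedly printed probes had a median SD of 0.05 between spots. Neither covers animals, dissection or labelling. The share of spots well above background was 50.9% in slow and 52.3% in fast fibres, and 0 spots were saturated. The myosin markers followed the labels. Myh7, the slow type I heavy chain, had a level of 10.66 in slow and 2.58 in fast fibres, Myh2 (type IIA) 5.82 and 7.66, Myh1 (type IIX) 1.89 and 8.73, and Myh4 (type IIB) -1.76 and 9.78.

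By the 2-fold rule, 1 of the 10 genes was higher in slow fibres, 2 were higher in fast fibres and 7 were not called. Over all 14647 genes measured on at least 1 array, 10.6% were called higher in slow and 14.2% higher in fast fibres. The members' shares of 1 and 2 in 10 are near that background. At 1.5-fold the members' counts were 1 and 3, with 21% of all genes higher in slow and 23.1% higher in fast fibres, and at 3-fold they were 1 and 2, with 5.2% and 7.23%. Under spike-in scaling, explained with Slc2a4, the background was 20.4% higher in slow and 9.17% higher in fast fibres. Under normexp, a background correction that shrinks differences of dim signals, it was 5.24% and 6.83% with quantile normalization, and 5.33% and 6.81% with the 75th percentile. Under the other 5 settings it lay between 9.26% and 11.3% for slow and between 13.6% and 16% for fast fibres. The genes past 2-fold were Tbc1d4 in slow fibres, and Tbc1d1 and Slc2a3 in fast fibres. For the 9 members with a value on both arrays the median difference was -0.22, against 0.05 over all such genes.

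**Figure D1:**
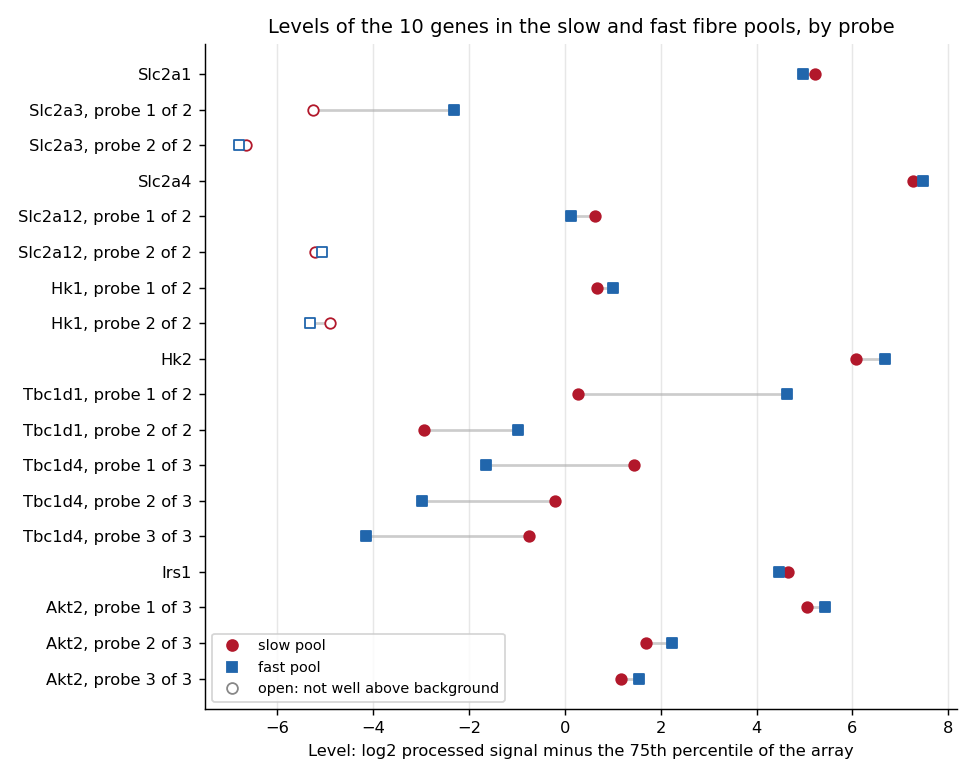
Level of each probe of the 10 genes (log2 processed signal minus the 75th percentile of the array) in the slow pool (circles) and the fast pool (squares), 1 array each; open symbols were not well above background. The symbols of Tbc1d4 lie apart with the slow pool to the right in all 3 probes, those of Tbc1d1 with the fast pool to the right in both probes, the first Slc2a3 probe has an open slow symbol far left of the fast one, and the other pairs lie close together.

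The Rab-GAP Tbc1d4, the main insulin-controlled brake on GLUT4 vesicles, was higher in slow fibres by every probe. Its brightest probe had a processed signal of 533 ± 53.4 in the slow and 58.7 ± 6.15 in the fast pool (± software error), or levels of 1.44 and -1.64. The difference of 3.08 with a software error of 0.21 corresponds to 8.47-fold. The other 2 probes gave signals of 169 in slow and 23.1 in fast fibres, and of 116 in slow and 10.3 in fast fibres, that is 6.82-fold and 10.5-fold. The last of these fast signals is close to the lowest signal called well above background on that array, 7.21. All 3 probes thus agreed in direction. They lay within 0.62 log2 of each other, a range reached by 17.4% of genes with 2 or more probes on both arrays. Of 14616 genes with a value or bound, 1.22% were as high or higher in slow fibres. As the members were chosen with earlier results of these data known, this share gives a rank and is no test of rarity.

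Its paralogue Tbc1d1, the Rab-GAP that AMPK also controls, showed the opposite contrast. The brightest probe had a signal of 239 ± 24.0 in the slow and 4527 ± 453 in the fast pool, at levels of 0.28 and 4.63. The difference of -4.35 with a software error of 0.20 amounts to 20.3-fold higher in fast fibres. The share of genes as low or lower was 0.534%, again a rank and no test. The second probe, at 25.5 in slow and 92.9 in fast fibres, gave -1.97, or 3.91-fold. Both probes carry the same transcript accession and share the direction but not the size. A gap of 2.38 log2 between probes of a gene was reached by 1.10% of the 4465 genes with 2 or more probes on both arrays, whose median range was 0.23. With the median over its probes, Tbc1d1 stood at -3.16.

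The contrast between the paralogues does not depend on a scaling constant between the arrays. By their brightest probes, the Tbc1d4 difference exceeded that of Tbc1d1 by 7.43 log2 with a software error of 0.29. Over 9 scalings and background corrections the excess ran from 6.27 to 7.46, although settings that differ only by such a constant could not change it. Neither the error nor this range covers the disagreement between the Tbc1d1 probes, and the second probe, at -1.97, makes the excess smaller. Under all 9 settings, Tbc1d4 was past 2-fold in slow fibres and Tbc1d1 past 2-fold in fast fibres. The size for Tbc1d4 was 4.87-fold to 11.2-fold, lowest under normexp, where the log2 difference was 2.28.

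**Figure D2:**
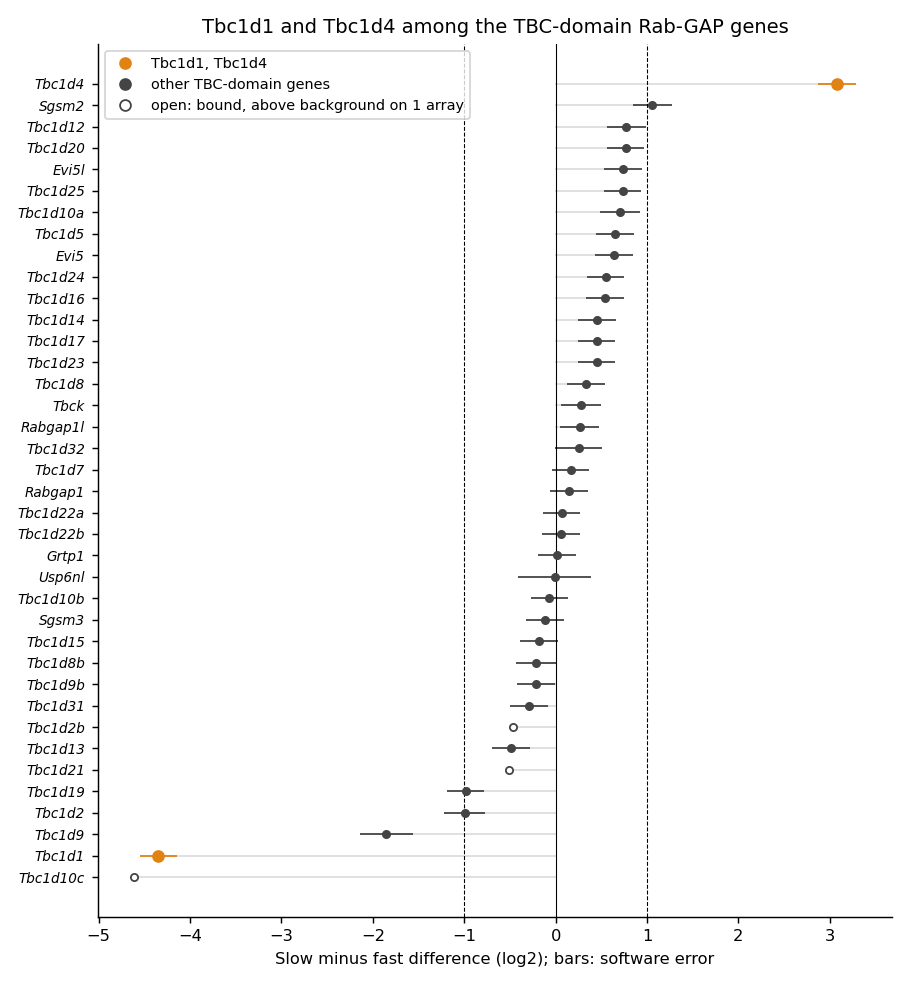
Slow minus fast differences (log2) of Tbc1d1, Tbc1d4 and 36 other measured genes with a TBC domain, from slow-high at the top to fast-high at the bottom; bars show the software error, open points are bounds of genes above background on 1 array, and dashed lines mark 2-fold. Tbc1d4 stands alone at the slow end at 3.08, and Tbc1d1 at -4.35 lies at the fast end beside Tbc1d10c, whose bound is -4.62.

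The TBC domain is the catalytic part of most Rab-GAPs, and 36 of 38 other genes on a list of them were above background. The 2-fold rule called 1 of them higher in slow and 2 higher in fast fibres (all genes: 10.6% and 14.2%) and left 33 uncalled. Their median difference was 0.25. Sgsm2 was 2.08-fold higher in slow fibres and Tbc1d9 3.61-fold higher in fast fibres. Tbc1d10c, a Rab-GAP known from lymphocytes, was above background in fast fibres only and at least 24.5-fold higher there by its single probe. It was the 1 gene of the list whose difference was larger in size than that of Tbc1d1 or of Tbc1d4, but this order depends on the setting. Under normexp with quantile normalization Tbc1d10c stood at -2.05, against -4.00 for Tbc1d1 and 2.29 for Tbc1d4. Under normexp both Sgsm2 and Tbc1d9 lay within 2-fold, at 0.57 and -0.57. No gene of the list was past 2-fold in slow fibres with the authors' deposited values. Under spike-in scaling 8 of these genes were past 2-fold in slow fibres, against 20.4% of all genes. With the percentile taken over probes detected in both pools, 4 passed 2-fold on the fast side. Tbc1d2b and Tbc1d21, above background in fast fibres only, were at least 1.38-fold and 1.42-fold higher there.

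The GLUT4 gene Slc2a4 itself was at nearly the same level in the pools. Its only probe had a signal of 29914 ± 2991 in slow and 32505 ± 3250 in fast fibres, at levels of 7.25 and 7.48. The difference of -0.22 is close to its software error of 0.20. It ran from -0.38 to -0.18 under 8 of the 9 settings and was 0.18 under scaling to spike-in controls, RNAs added in graded amounts, which adds 0.40 to every log2 difference and moves the median of all genes to 0.44. Because this shift is the same for every gene, the place of Slc2a4 below that median could not change.

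Slc2a1, the ubiquitous carrier GLUT1 found at the surface of many cells, had signals of 7299 ± 730 in slow and 5743 ± 574 in fast fibres. The difference of 0.24 with a software error of 0.20 was above 0 under all 9 settings, from 0.13 to 0.64. GLUT1 is abundant in the endothelium of some tissues, and endothelial markers ran the other way. Of 11 endothelial markers 9 passed the 2-fold rule on the fast side, with a median difference of -1.48 over the 11. Their summed signal, in multiples of the 75th percentile of each array, was 7.05 in slow and 27.2 in fast fibres. As levels of different probes are not comparable, such sums, here and below, weigh the brightest probes most. The count of 9 ran down to 5 over the 9 settings. The part of endothelial cells in the Slc2a1 signal was not tested. In pooled RNA, fewer cells of a type and less RNA per cell cannot be told apart.

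Slc2a12, which encodes GLUT12, a carrier that responds to insulin in cultured human muscle cells, was 1.42-fold higher in slow fibres. The signals were 305 ± 30.6 in slow and 201 ± 20.2 in fast fibres, a difference of 0.50 with a software error of 0.20. It was the highest of the 7 members within 2-fold and stayed above 0 under all 9 settings, from 0.39 to 0.90. Its second probe stayed near background in both pools. Set against Slc2a4, the Slc2a12 difference was higher by 0.72 with a software error of 0.29, and by 0.66 to 0.81 over the settings. Settings that differ only by a scaling constant could not change this excess.

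Slc2a3, the high-affinity carrier GLUT3 best known from neurons, platelets and white cells, was dim. One probe had a signal of 5.13 ± 2.38 in slow fibres, not well above background, and 36.7 ± 4.12 in fast fibres. This makes it at least 4.47-fold higher in the fast pool, a bound of -2.16 on the log2 scale, while neither array showed the second probe well above background. The call was lost under both normexp settings, at -0.50 and -0.56. Macrophage and leukocyte markers had 3 of 7 members above background past 2-fold in fast fibres, among them Cd68 at a difference of -2.15. Of the 6 measured on both arrays, 4 had differences below 0 and 2 above 0. The 2 were Itgam at 0.22, with a level of 4.01 in slow fibres, and C1qb at 0.31. Csf1r, at -0.92 by its brightest probe, had a difference of 0.42 by its other probe. The sums over the 7 markers were 20.6 in slow and 30.02 in fast fibres. Neither array showed Ptprc, Adgre1, Lyz2, Tyrobp or C1qa well above background. The part of such cells in the Slc2a3 signal was not tested.

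**Figure D3:**
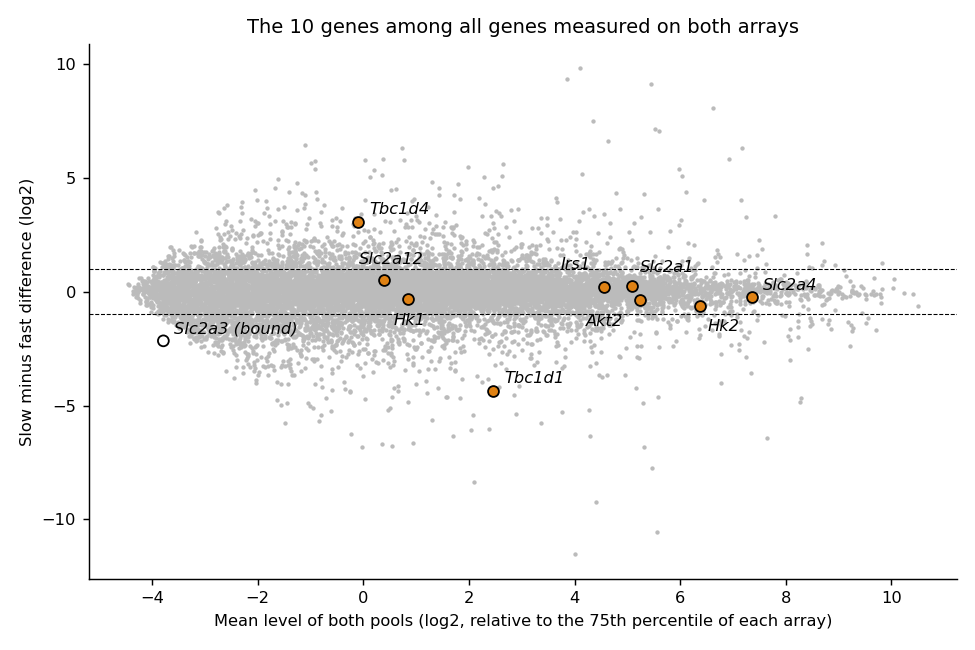
Slow minus fast difference (log2) against the mean level of both pools for all genes measured on both arrays (grey), with the 10 genes marked; Slc2a3 is drawn at its bound and dashed lines mark 2-fold. Tbc1d4 at 3.08, Tbc1d1 at -4.35 and Slc2a3 at -2.16 lie outside the 2-fold lines, and the other 7 genes lie between them.

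Hexokinase adds a phosphate to glucose and so keeps it in the cell. Hk2, the insulin-responsive form of adult muscle, had signals of 13207 ± 1321 in slow and 18751 ± 1875 in fast fibres. The difference of -0.61, 1.52-fold higher in fast fibres, is about 3 times its software error and was below 0 under all 9 settings, from -0.79 to -0.21. Hk1, the form of brain and red cells, had signals of 314 ± 31.5 in slow and 369 ± 37.0 in fast fibres. Its difference was -0.33 with a software error of 0.20, and it turned to 0.06 under spike-in scaling. The second Hk1 probe stayed near background in both pools. The 5 erythrocyte markers above background were past 2-fold on the fast side, 3 to 5 of them over the settings, with sums of 34.7 in slow and 93.0 in fast fibres, while neither array showed Epb42 well above background. The part of red cells in the Hk1 difference was not tested. The Hk2 difference minus that of Hk1 was -0.27 with a software error of 0.29, and it ran from -0.49 to -0.27 over the settings. Here too, settings that differ only by a scaling constant could not change the value.

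The upstream signalling genes also lay within 2-fold. Irs1, the first docking protein below the insulin receptor, had signals of 4955 ± 495 in slow and 4043 ± 404 in fast fibres. Its difference of 0.19 was smaller than the software error of 0.20 and ran from 0.08 to 0.59 over the settings. Akt2, the Akt isoform tied to glucose uptake, had signals of 6468 ± 647 in slow and 7870 ± 787 in fast fibres by its brightest probe, a difference of -0.38. Its other 2 probes gave -0.56 and -0.37, so all 3 were lower in slow fibres, although the brightest stood at 0.01 under spike-in scaling. Thus the Akt2 probes agreed closely, at 1.30-fold to 1.47-fold higher in fast fibres.

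**Figure D4:**
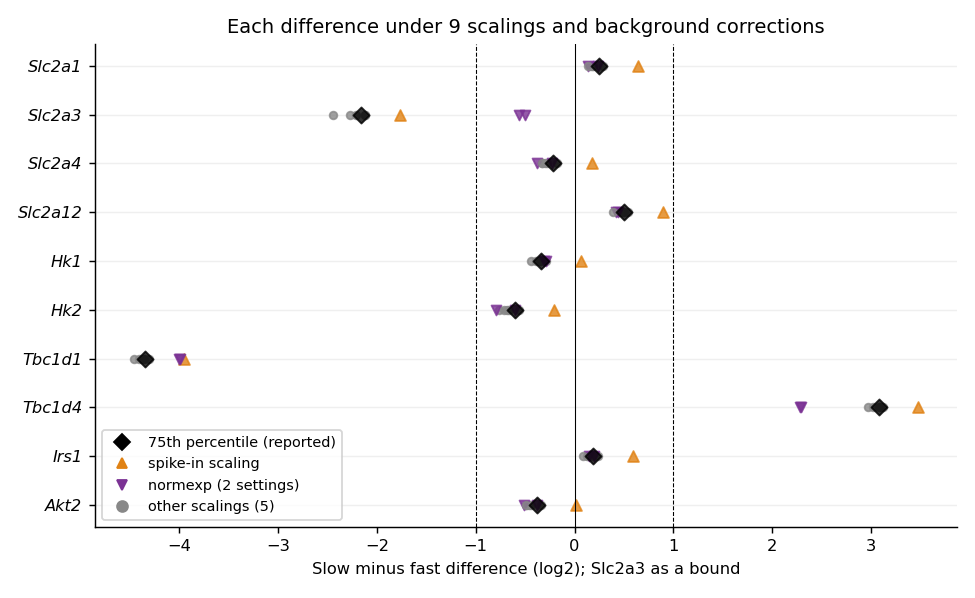
Slow minus fast difference (log2) of each of the 10 genes under 9 scalings and background corrections, with Slc2a3 as a bound, diamonds for the reported setting and dashed lines at 2-fold. Tbc1d1 stays between -4.46 and -3.95 and Tbc1d4 between 2.28 and 3.48, Slc2a3 crosses the 2-fold line under normexp, and Slc2a4, Hk1 and Akt2 cross 0 under spike-in scaling only.

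Other insulin signalling genes were on a list of 35, of which 34 were above background. Of these, 4 were called higher in slow and 2 higher in fast fibres (all genes: 10.6% and 14.2%), with 28 uncalled. The median was 0.13, against 0.05 over all genes. Grb14, an adaptor that inhibits the insulin receptor, was 4.85-fold higher in slow fibres, and Trib3, a pseudokinase that binds Akt, 2.85-fold. Irs2, the other main receptor substrate, was 2.05-fold higher in fast fibres, with levels of 6.11 in slow and 7.15 in fast fibres. Irs3, above background in fast fibres only, was at least 1.55-fold higher there. The Irs2 call held in 7 of 9 settings, being lost under median scaling and under spike-in scaling, where the difference was nearest to 0 at -0.64.

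Of 33 genes of GLUT4 vesicle traffic above background, 0 were called higher in slow and 9 higher in fast fibres. Over all genes the shares were 10.6% and 14.2%. The median difference of the list was -0.10. Pak1, a kinase below the GTPase Rac1 in actin remodelling, was above background in fast fibres only and at least 44.4-fold higher there by its single probe, with a difference of -2.81 under normexp. Sort1, the vesicle protein sortilin, was 13.0-fold higher in fast fibres by its brightest probe while a second probe gave a difference of -0.33 and the remaining one, above background in fast fibres only, a bound of -3.25. Myo5a, a vesicle motor, was 3.05-fold and Lrp1, a receptor that travels with GLUT4 vesicles, 2.95-fold higher in fast fibres. Rab13, a Rab that TBC1D4 acts on in cultured cells, was at least 3.35-fold higher there, and Doc2b, a calcium sensor of membrane fusion, at least 1.38-fold. Under both normexp settings 1 of these genes was past 2-fold in slow and 4 in fast fibres. The shares of all genes were 5.24% and 6.83% with quantile normalization, and 5.33% and 6.81% with the 75th percentile. Myo5a stood at -0.82, Lrp1 at -0.85 and Rab13 at -0.61 under normexp with quantile normalization. Under spike-in scaling 3 of the list were called higher in slow and 5 higher in fast fibres, against 20.4% and 9.17% of all genes. Lrp1 is also made by fibroblasts, whose markers were past 2-fold in fast fibres for 9 of 10 members, with sums of 42.2 in slow and 169 in fast fibres, and their part in the Lrp1 difference was not tested.

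Further sugar carriers were mostly dim, with 5 of 13 at background in both pools, among them Slc2a2 (GLUT2) and the sodium-driven carriers Slc5a1 and Slc5a2. Of the 8 above background, 0 were called higher in slow and 2 higher in fast fibres (all genes: 10.6% and 14.2%). Their median difference was -0.28. Slc45a4 was 2.07-fold higher in fast fibres, with a difference of -0.48 by its other probe. Slc2a5, the fructose carrier GLUT5, was at least 2.68-fold higher there and above background in that pool only. Neither call held under normexp, where 0 of these genes were past 2-fold.

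Of 13 genes above background for steps around glucose 6-phosphate, 1 was called higher in slow and 4 higher in fast fibres (all genes: 10.6% and 14.2%). Their median difference was -0.27. Slc37a4, the carrier of glucose 6-phosphate into the endoplasmic reticulum, was 13.5-fold higher in fast fibres, at levels of 2.64 in slow and 6.39 in fast fibres. Pgm1, which interconverts glucose 1-phosphate and 6-phosphate, was 3.82-fold and H6pd, an oxidising enzyme of the same compartment, 2.95-fold higher in fast fibres. Pgm2, above background in fast fibres only, was at least 1.39-fold higher there. Hk3, a hexokinase of white cells, lay near background in both pools, at levels of -4.41 in slow and -4.31 in fast fibres.

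Regulators tied to the Slc2a4 and Hk2 promoters numbered 17, at a median difference of -0.18. Of these, 1 was called higher in slow and 3 higher in fast fibres (all genes: 10.6% and 14.2%). Ppara, a nuclear receptor for fatty acids, was 6.23-fold higher in slow fibres, and 2.37 log2 higher by its other probe. Nr4a1 and Nr4a3, activity-induced orphan receptors, were higher in fast fibres by 2.83-fold and 2.66-fold, and Srebf1, a regulator of lipid synthesis, 2.11-fold. Of the MEF2 factors, which bind the Slc2a4 promoter, Mef2a had a difference of -0.69, Mef2c of 0.26 and Mef2d of -0.07, with 0.30 by another Mef2d probe. The Nr4a3 call was lost under normexp at -0.97 and the Srebf1 call under spike-in scaling at -0.68.

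**Figure D5:**
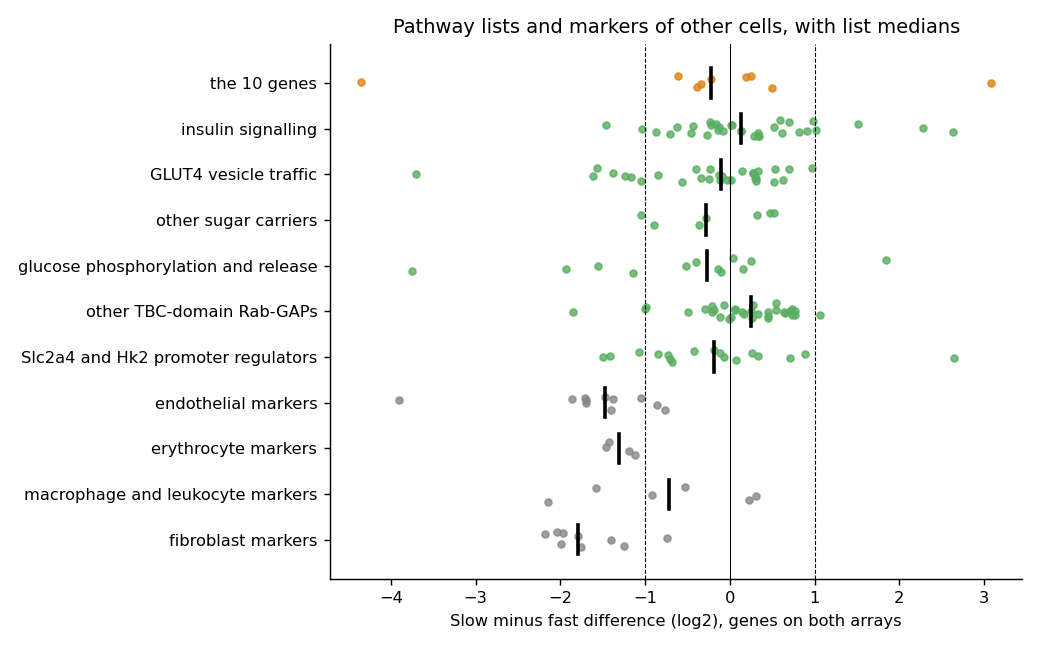
Slow minus fast differences (log2) of genes measured on both arrays, 1 point a gene, for the 10 genes, the 6 pathway lists and 4 lists of markers of other cells; black bars are list medians and dashed lines mark 2-fold. The medians of the pathway lists lie between -0.28 and 0.25, and those of the 4 marker lists drawn between -1.79 and -0.72. Schwann and perineurial, adipocyte and satellite cell markers are not drawn, and their medians were -1.09, -0.50 and 0.47.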

How the data were processed

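RNA of 2 fibre pools was measured on 1 slide with 1 array per pool, and per the labels' protocols 0.1 µg of total RNA was labelled with Cy3. Agilent Feature Extraction 12.0.3.1, named in the submitters' processing notes, subtracted background within each array, per the file headers, and the deposited intensities are linear and not normalized between arrays. The authors' deposited value table holds the same intensities times 2.45 on the slow and 2.83 on the fast array, with medians of 27.1 and 30.1, on a linear, uncentred scale, and the target of these factors is unknown.

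From these, log2 values minus the 75th percentile over all 59305 non-control spots were computed. A total of 159 outlier spots were left out, repeated spots were averaged to 56596 probes, and 33763 probes matched a RefSeq gene of GRCm38.p6, used for names, because the array design refers to mm9. The brightest probe above background on at least 1 array stood for a gene. For a bound, the dim array's value was replaced by its lowest signal well above background wherever that was higher. Members and lists were chosen with earlier results of these data known. Genes named are the 10, the myosins, up to 6 of each of 6 lists and bounds; Mef2a, Mef2c, Mef2d and Hk3 were named after their values were seen. Some genes that this rule names are not reported here. Satellite cell, Schwann cell and adipocyte markers, also listed, are given in the closing section. Alternatives changed the scaling, the background correction (limma 3.58.1, normexp offset 50, on median intensities), the probe rule and the size rule. The percentile scaling and the probe choice of the reported setting were run on simulated data, with changes set in bright genes only. Bounds of dim genes and the other settings were not tested in this way. The arrays' number limits the precision.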

Additional observations from a re-analysis of the deposited data

How the results depend on the processing

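No paired analysis was possible because each group is 1 pool on 1 array, and for the same reason no replicate could be left out. The count of members past 2-fold in slow fibres was 1 under every scaling, background correction, probe rule and size rule run. The count in fast fibres was 2, but 1 under normexp with quantile normalization and 1 under normexp with the 75th percentile (background: 5.24% of genes higher in slow and 6.83% higher in fast fibres, and 5.33% and 6.81%). It was 3 at 1.5-fold, where Hk2 joins, against a background of 21% of genes higher in slow and 23.1% higher in fast fibres. At 3-fold it was 2, with 5.2% and 7.23% of genes. Of 110 recomputed member differences, 93 moved by less than the software error, 17 by more, and 0 past 2-fold changed sign. Under the changed probe rules only Tbc1d1 (median over probes, -3.16) and Slc2a3 (no filter on dim probes, -2.94) moved at all. Most other members had 1 probe above background, so these rules could not move them, yet they are counted in the 93. Of 96 recomputed list counts, 70 stayed within 1.5 times and 26 did not: counts in slow fibres ran from 3 to 9 for insulin signalling, 0 to 3 for GLUT4 vesicle traffic, 0 to 8 for TBC-domain genes, 0 to 1 for glucose 6-phosphate genes and 1 to 3 for promoter regulators. Counts in fast fibres ran from 1 to 2, 4 to 9, 1 to 4, 3 to 4 and 2 to 3 for the same lists, and from 0 to 3 for sugar carriers. Fast counts of marker lists ran from 5 to 9 for endothelial, 3 to 5 for erythrocyte, 2 to 4 for macrophage and leukocyte, 6 to 9 for fibroblast, 2 to 6 for Schwann and perineurial, 0 to 2 for adipocyte and 0 to 1 for satellite cell markers. Spike-in scaling placed 20.4% of all genes past 2-fold in slow and 9.17% in fast fibres. Of 48 recomputed medians of the 6 pathway lists, 6 moved by over 0.20. The pathway medians below 0 turned above 0 under spike-in scaling, while the medians of cell marker lists below 0 stayed below 0. Signals near background limit Slc2a3, the dimmest Tbc1d4 probe and every bound.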

Other observations

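Markers of further cell types did not all run the same way. Of 10 Schwann and perineurial markers, 2 were called higher in slow and 6 higher in fast fibres, with summed signals of 19.6 in slow and 9.83 in fast fibres, most of the slow sum being Pmp22 at a level of 4.13. Over the settings 1 to 2 were called in slow and 2 to 6 in fast fibres. Mbp, called in slow fibres at 2.32, stood at 0.85 under normexp and had bounds of -0.68 and -1.65 by its other 2 probes. Adipocyte markers had 1 of 3 detected members past 2-fold, Fabp4 with a difference of -1.20, and neither array showed Adipoq, Plin1, Retn or Cidec well above background. Of 3 satellite cell markers above background, Vcam1 was 3.28-fold higher in fast fibres, while Sdc4 had a difference of 0.47. Pax7, the defining factor of these cells, stood at -3.20 in slow and -3.80 in fast fibres. Neither array showed Myf5 or Calcr well above background. Among fibroblast markers, Col1a1, Dcn and Col1a2 were 4.54-fold, 4.11-fold and 3.98-fold higher in fast fibres.

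Among genes near the insulin receptor that lay within 2-fold, chosen after their values were seen, Insr had a difference of 0.69, with 0.98 by another probe, and Akt1 had 0.82, beside -0.38 for Akt2. Rab14, a Rab that TBC1D4 acts on in cultured cells, had a difference of 0.97, just under 2-fold, and its probes reached 1.07. Rab10, another such Rab, had a difference of -0.24.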
